A study of Mus musculus with 4 samples.

Results

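Oligodendrocyte precursors were picked from a single-cell RNA-seq data set of enzymatically dissociated mouse brain by the genes detected in each cell. A barcode with at least 400 genes and at most 20% mitochondrial unique molecular identifiers (UMIs, each standing for one captured RNA molecule) was kept as a precursor when at least 2 of Pdgfra, C1ql1, Cspg4, Neu4, Cacng4 and Gpr17 were detected, with at most 1 gene from each of 3 groups that mark other cells (Cldn5, Flt1, Aqp4, Tmem119 and P2ry12; Dcn, Col1a1, Col1a2 and Col3a1; Kcnj8, Abcc9, Rgs5 and Higd1b). This left 59 precursors of 10067 cells that passed the quality filter, or 0.586% (exact 95% binomial interval, 0.446 to 0.755%). Because expression chose the cells, the 6 marker genes, and the contrast of precursors with other cells, are given as a description with no test.

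The cells were taken from the entire brain of each of 4 mice, male C57BL/6J animals taken on postnatal day 90, with no transgene or engineered allele named in the labels, in 4 droplet libraries labelled as 1 batch. All 4 brains were digested with enzymes at 37 °C without cell sorting. The mice formed a pair of groups of 2: mice processed with no inhibitors, and mice processed with inhibitors, in which the transcription inhibitors actinomycin D and triptolide were added from perfusion onward and the translation inhibitor anisomycin from dissection onward. The comparison asks whether digestion itself changes gene expression in each brain cell type, here in precursors. Every cell had been through digestion, so the comparison measures what the inhibitors change, and no undigested tissue was analysed here.

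Oligodendrocyte precursors, also called NG2 glia, divide and give rise to myelinating oligodendrocytes throughout life. They carry the platelet-derived growth factor receptor alpha (Pdgfra) and the NG2 proteoglycan (Cspg4), receive synapses from neurons, and express the transcription factors Olig1, Olig2 and Sox10 that are shared by the whole oligodendrocyte lineage. On leaving the precursor state a cell loses Pdgfra and passes through a short-lived committed stage marked by the receptor Gpr17, the secreted factor Bmp4 and the phosphodiesterase Enpp6, before it makes myelin.

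The libraries with no inhibitors held 10 and 11 precursors and those with inhibitors held 14 and 24. Summed over precursors, the 4 libraries gave 32611, 36468, 36721 and 42628 UMIs, so a gene with 0 UMIs could still have been present at up to 92.0, 82.3, 81.7 and 70.4 counts per 1000000 UMIs (CPM), the level that 3 UMIs would give. Precursors had a median of 1896 UMIs (range, 537 to 9996), and the median per library was 2274, 3169, 2266 and 1156 UMIs. The second library with inhibitors stood apart: 11 of its 24 precursors had under 1000 UMIs, and their median mitochondrial share was 11.2%, against 5.58 to 6.53% in the other 3 libraries. Between 9 and 13 barcodes were shared by each pair of libraries, and none of them was a precursor. Intervals and detection limits cover counting error only.

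The label was held against Olig1, Olig2 and Sox10, which the rule does not use. As the whole oligodendrocyte lineage shares these factors, they bear on lineage and cannot tell precursors from committed or mature cells. At least 1 of the 3 factors was detected in 55 of 59 precursors and all 3 in 23. The 4 cells without any had a median of 896 UMIs, against 2215 in the others. Olig1 was detected in 52 precursors, Olig2 in 37 and Sox10 in 31, at a median depth of 1896 UMIs. In microglia, which should lack these genes, they were detected in 2.47%, 0.324% and 0.50% of 3397 cells at a median depth of 1406 UMIs. The rule has a threshold of 2 genes. Of the 19 cells with exactly 2 genes, 17 held a lineage factor (89.5%), and of the 199 cells with exactly 1 gene, which the rule left out, 67 did (33.7%). Of those 199 cells, 97 were there by Cacng4 alone and 95 met the astrocyte rule used below.

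Before any comparison between groups, 4 precursors had to be set apart, 1 in each library, because each held at least 3 of 6 marker genes of microglia, astrocytes or choroid plexus (chosen after seeing the data). The cell in the first library with no inhibitors had 358 UMIs of the 6 choroid plexus genes. That in the second had 99 UMIs of 9 microglial genes and 53 UMIs of immediate-early genes. The cell in the first library with inhibitors had 44 UMIs of 8 astrocyte genes and 0 UMIs of Olig1, and that in the second had 6 microglial, 5 astrocyte and 28 neuronal UMIs. The other 55 precursors held 0 to 8 microglial, 0 to 6 astrocyte, 1 to 19 choroid plexus, 0 to 19 neuronal and 0 to 13 immediate-early UMIs. Neuronal genes were not used to set cells apart. The cell with 19 neuronal UMIs, in the first library with inhibitors, held 5 neuronal genes and 26 myelin UMIs and was kept. Summed over all precursors of a library, the 9 microglial genes stood at 2.76 and 31.0 UMIs per 10000 with no inhibitors and 1.36 and 10.3 with inhibitors, the 8 astrocyte genes at 3.37 and 5.48 against 18.5 and 6.33, and the 6 choroid plexus genes at 127 and 30.2 against 17.7 and 40.1. Without the 4 cells these levels were 3.54 and 4.38 against 1.44 and 9.67, 4.86 and 5.63 against 6.90 and 5.60, and 25.2 and 30.7 against 17.2 and 38.9. Fibroblast and mural genes were at or near 0, with at most 0.823 UMIs per 10000 in any library. None of the 59, these 4 included, was among the 206 barcodes scored as doublets, so the score does not show that the others are single cells. Tests between groups that rest on these 4 cells are given with and without them. Other levels include them unless stated.

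All 6 genes of the rule were found in every library. Pdgfra, the receptor for the main mitogen of these cells, stood at 429 and 521 CPM with no inhibitors and 408 and 493 CPM with inhibitors, and was detected in 31 cells. Gpr17, a G protein-coupled receptor of cells about to differentiate, stood at 1503 and 1673 against 1471 and 2111 CPM and was detected in 38 cells. For both receptors the values of the 2 groups overlapped. C1ql1, a secreted C1q-like protein, was detected in 44 cells, the sialidase gene Neu4 in 38, and Cspg4 and the AMPA receptor auxiliary subunit Cacng4 in 22 each. Pdgfra was detected in 0.206% of microglia and Gpr17 in 0.265%. Of the 59 cells, 19 had exactly 2 of the 6 genes, 18 had 3, 10 had 4, 9 had 5 and 3 had all 6.

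Genes of the perineuronal and perisynaptic matrix were abundant in precursors. Tnr, which encodes tenascin-R, stood at 1595, 1892, 1797 and 1666 CPM (1737 ± 133, mean ± SD, n = 4 mice) and was detected in 40 cells. In mature oligodendrocytes it stood at 13 ± 4.73 CPM and in all other cells together at 9.15 ± 2.36 CPM. The proteoglycan genes divided by which glia shared them. Vcan (versican; 462 ± 161 CPM) was at 7.93 CPM in astrocytes, whereas Cspg5, Bcan and Ptprz1 were found in both: Cspg5 (neuroglycan C) at 942 ± 172 CPM in precursors and 759 in astrocytes, Bcan (brevican) at 930 ± 129 and 1212, and the receptor phosphatase Ptprz1 at 790 ± 134 and 910. Ncan (neurocan) was detected in 11 precursors at 107 ± 71.3 CPM, below its 207 CPM in astrocytes. Matn4 (matrilin 4) stood at 385 ± 52.5 CPM. Hapln1, which encodes a link protein of hyaluronan, was detected in 0 of 59 precursors, which allows up to 5.08% of cells with a UMI and sets no limit on cells that express it, and stood at 64.6 CPM in astrocytes.

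The other transcription factors of the lineage followed the same pattern of presence. Sox8 was detected in 31 cells (431 ± 143 CPM), Nkx2-2, which acts in the step to differentiation, in 19 (270 ± 87.4 CPM), and Sox6, which holds back differentiation, in 18 (223 ± 44.3 CPM). Sox5 was detected in 4 cells. Sox6 stood at 3.86 CPM in mature oligodendrocytes.

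Ranked over 926 genes with at least 100 CPM in the precursors of every mouse, the 15 genes with the largest ratio over all other cells were Tnr (7.58, log2 ratio of pooled CPM), Vcan (6.92), Zfp488, a corepressor of the lineage (6.79), the long non-coding RNA 9630013A20Rik (6.53), 3110035E14Rik (6.41), the cell adhesion gene Opcml (6.28), 9530059O14Rik (6.17), Bmp4 (6.05), 3632451O06Rik (5.83), Igsf9b (5.59), 1810041L15Rik (5.57), Tmem108 (5.56), the guidance factor Sema3d (5.53), Enpp6 (5.40) and the kinase Fyn (5.30). Among the largest against mature oligodendrocytes were Bmp4 (89 UMIs in precursors and 1 in the 891 oligodendrocytes), Vcan (70 and 3), Ppfibp1 (52 and 3), 3110035E14Rik (65 and 4), Tnr (258 and 36), the postsynaptic scaffold gene Dlgap1 (36 and 7), the adhesion gene Nrcam (28 and 6), 4430402I18Rik (93 and 21), Traf4 (36 and 8), Opcml (159 and 40), the syndecan gene Sdc3 (28 and 7), the transcription factor gene Sox4 (155 and 41), Trio (42 and 11) and Fxyd6 (30 and 8). The UMIs of the oligodendrocytes came from a pool of 2806408, against 148428 in precursors. Of the precursor pool, 90461 UMIs came from the cells with Gpr17 and no Pdgfra that are described below. Those cells gave 111 of 111 Enpp6, 119 of 122 9630013A20Rik, 250 of 262 Fyn, 77 of 89 Bmp4 and 209 of 258 Tnr UMIs. They gave 39 of 70 Vcan UMIs. The pooled ranks of such genes thus describe mainly these cells. In the other direction, Ndrg1 had 1 UMI in precursors and 1923 in oligodendrocytes, Il33 had 1 and 1857, Serpinb1a had 0 and 584, and Adssl1 had 0 and 581. Against all other cells, Pglyrp1, Itgb5, Tm4sf1, Slc7a5 and Fn1 each had 0 UMIs in precursors, with 4247 to 9564 UMIs elsewhere.

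**Figure D1:**
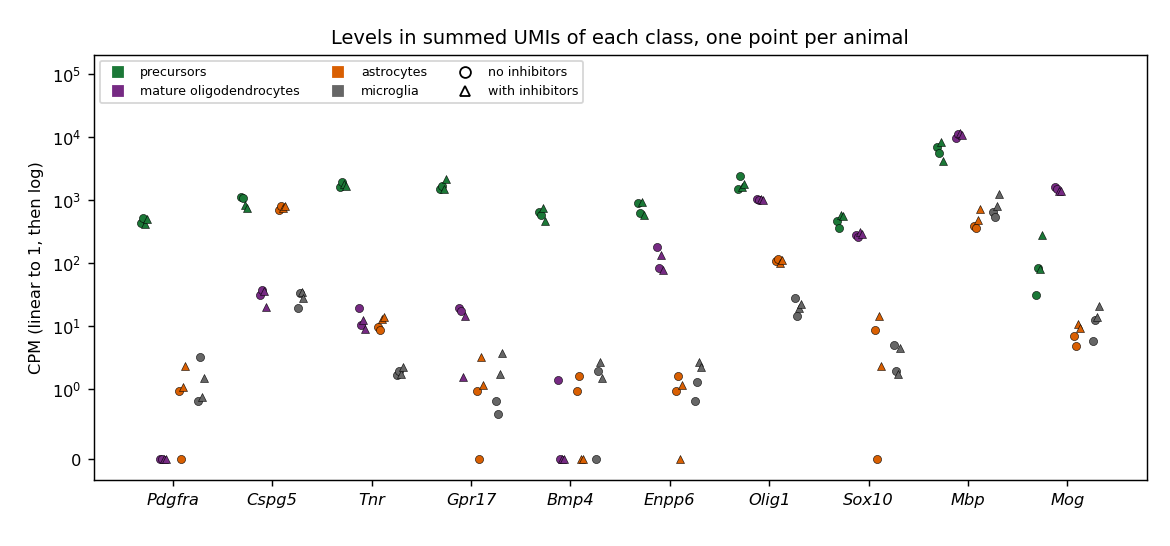
Levels of 10 genes (vertical axis, CPM, linear to 1 and then logarithmic) in the summed UMIs of precursors, mature oligodendrocytes, astrocytes and microglia, with 1 point per mouse; circles are mice with no inhibitors and triangles mice with inhibitors. In every mouse Pdgfra, Tnr and Bmp4 were higher in precursors than in the other 3 classes, and Cspg5 was near its astrocyte level.

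The 59 cells fell into groups by detection of Pdgfra and Gpr17: 15 had Pdgfra alone, 16 had both, 22 had Gpr17 alone and 6 had neither. These groups were cut from 2 genes of the rule, so what follows describes the cells and tests nothing. The 4 set-apart cells are kept in them. The cell with microglial genes (4502 UMIs) and that with neuronal UMIs (3343) gave part of the 21390 Pdgfra-only UMIs. They gave 10 and 3 of the 42 Cspg5 UMIs of that group and 7 and 2 of its 20 Tnr UMIs. The cell with choroid plexus genes (9996 UMIs) is Gpr17-only, and that with astrocyte genes had neither. The groups also differed in depth, with a median of 859 UMIs in Pdgfra-only cells, 1440 in cells with both, 4455 in Gpr17-only cells and 1671 in those with neither, and in median mitochondrial share (10.8, 6.49, 4.49 and 7.26%).

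Genes of the committed stage sat almost entirely in the Gpr17-only cells. Enpp6 was detected in 18 of 22 Gpr17-only cells (111 UMIs) and in 0 of the 31 cells with Pdgfra, which allows up to 9.68% of cells with a UMI and, in these shallower cells, sets no limit on those that express it. Bmp4 was detected in 18 of 22 Gpr17-only cells (851 CPM), in 2 of the 16 with both and in 1 of the 15 with Pdgfra alone. That 1 cell was the set-apart precursor with microglial genes. 9630013A20Rik was detected in 18 of 22, 3 of 16 and 0 of 15. Fyn, a Src-family kinase needed for myelination, stood at 2764 CPM in Gpr17-only cells, 378 in cells with both and 93.5 in Pdgfra-only cells. Bcas1, a marker of cells starting to myelinate, was detected in all 22 Gpr17-only cells, and Tcf7l2, a transcription factor of that step, in 14, against 5 and 2 of the 15 Pdgfra-only cells.

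Part of the precursor genes ran the other way. Cspg5 was detected in 13 of 15 Pdgfra-only cells and 13 of 16 with both, at 1964 and 2568 CPM, but in 3 of 22 Gpr17-only cells (77.4 CPM). Cspg4 was detected in 9, 8 and 2 of these cells. C1ql1 stood at 1075 and 1473 CPM in cells with Pdgfra and 199 CPM in Gpr17-only cells, Ptprz1 at 1449 and 1926 against 287 CPM, and the protease inhibitor Serpine2 at 1216 and 1624 against 298 CPM. Others did not. In Pdgfra-only cells, cells with both and Gpr17-only cells, Tnr stood at 935, 982 and 2310 CPM, Vcan at 187, 906 and 431, Neu4 at 421, 793 and 619, Sox6 at 46.8, 189 and 287, and Scrg1 at 421, 906 and 685. Olig1 was found in 12, 15 and 21 of the 15, 16 and 22 cells.

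Every precursor had over 500 UMIs, so each was thinned to that depth. At equal depth Enpp6 was detected in 0, 0 and 9 cells of the Pdgfra-only, both and Gpr17-only groups, Bmp4 in 0, 1 and 11, Fyn in 1, 2 and 15, and Cspg5 in 9, 10 and 1. The opposed order of Enpp6, Bmp4 and Fyn against Cspg5 was thus also seen with these genes counted at a single depth. The groups themselves were still cut on Pdgfra and Gpr17 at full depth. At 500 UMIs Pdgfra was detected in 10 of the 15 Pdgfra-only cells and Gpr17 in 13 of the 22 Gpr17-only cells. The grouping can therefore still depend on depth. The 8 genes listed for the committed stage, none of them used by the rule, were Bmp4, Enpp6, Tcf7l2, Bcas1, Fyn, Itpr2, Sirt2 and 9630013A20Rik. Of these, Sirt2 gave the most UMIs in Gpr17-only cells (353, against 250 for Fyn). Summed over the 8 genes, the level per cell had a median of 119 UMIs per 10000 in Gpr17-only cells (5.49 to 171). The median was 11.6 in Pdgfra-only cells (at most 25.9) and 12.6 in cells with both (at most 57.2).

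**Figure D2:**
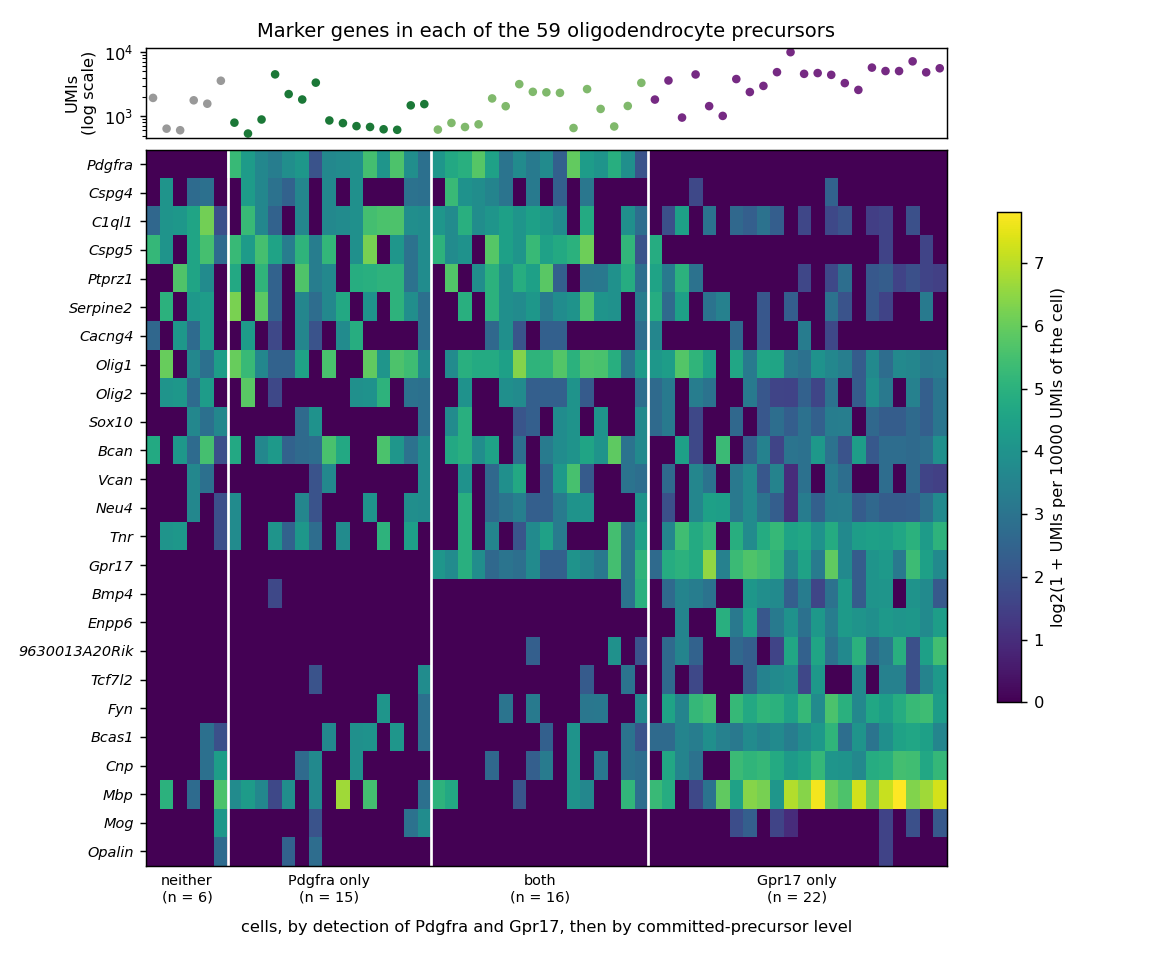
Each column is 1 of the 59 precursors, grouped by detection of Pdgfra and Gpr17 and ordered by committed-stage level; colour gives log2(1 + UMIs per 10000 UMIs) of each gene, and the points above give the cell's UMIs on a log scale. Bmp4, Enpp6, 9630013A20Rik and Fyn fill the Gpr17-only columns on the right, while Cspg5 and Ptprz1 fill the columns with Pdgfra, which are also shallower.

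Promoters of Pdgfra and Cspg4, for the precursor state, and of Enpp6 and Bmp4, for the committed stage, are shown because these genes split the cells. Pdgfra (chr5:75152292-75198215, plus strand), Cspg4 (chr9:56865033-56899870, plus strand), Enpp6 (chr8:46986887-47096762, plus strand) and Bmp4 (chr14:46383520-46390669, minus strand) are placed by the GENCODE annotation of GRCm38. The RefSeq windows, from 250 bases before to 50 bases after the annotated start, which lies upstream of the GENCODE start for Pdgfra and downstream of it for Cspg4, are printed 5′ to 3′ on the gene's strand, with matches to the E-box CANNTG, the core motif of basic helix-loop-helix factors such as OLIG2, in capitals.
Pdgfra, chr5:75152001-75152300: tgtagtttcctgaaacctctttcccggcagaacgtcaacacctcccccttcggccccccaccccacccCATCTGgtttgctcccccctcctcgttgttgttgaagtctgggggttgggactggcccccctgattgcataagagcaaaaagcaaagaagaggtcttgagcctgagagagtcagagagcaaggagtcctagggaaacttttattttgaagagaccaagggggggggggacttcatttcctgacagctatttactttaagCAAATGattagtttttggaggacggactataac
Cspg4, chr9:56864854-56865153: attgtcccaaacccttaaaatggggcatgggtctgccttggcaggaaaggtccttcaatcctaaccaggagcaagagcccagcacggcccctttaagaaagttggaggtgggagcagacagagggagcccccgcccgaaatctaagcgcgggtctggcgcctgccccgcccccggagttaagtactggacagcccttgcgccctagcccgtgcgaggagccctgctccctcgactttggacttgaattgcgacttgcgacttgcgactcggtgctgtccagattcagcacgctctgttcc
Enpp6, chr8:46986637-46986936: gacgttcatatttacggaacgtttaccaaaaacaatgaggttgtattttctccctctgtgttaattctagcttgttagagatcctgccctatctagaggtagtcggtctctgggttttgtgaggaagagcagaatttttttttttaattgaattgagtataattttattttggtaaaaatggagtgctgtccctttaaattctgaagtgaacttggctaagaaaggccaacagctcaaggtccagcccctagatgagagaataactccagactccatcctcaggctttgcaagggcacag
Bmp4, chr14:46390620-46390919: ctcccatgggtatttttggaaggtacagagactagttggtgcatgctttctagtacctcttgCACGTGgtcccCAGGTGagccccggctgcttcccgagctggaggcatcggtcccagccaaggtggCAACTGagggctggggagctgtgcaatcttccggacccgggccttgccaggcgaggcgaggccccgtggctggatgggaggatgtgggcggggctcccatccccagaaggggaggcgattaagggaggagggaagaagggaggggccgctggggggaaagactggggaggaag
The Pdgfra window held 2 E-boxes, that of Bmp4 held 3, and those of Cspg4 and Enpp6 held 0, on either strand. Of 32851 RefSeq promoter windows in GRCm38.p6, 72.3% held at least 1, 39.6% at least 2 and 17.6% at least 3. ACAAT, the core of motifs bound by SOX factors, occurred once in the windows of Cspg4 and Enpp6 on either strand and not in those of Pdgfra and Bmp4, and 31% of all windows held it. No match of one motif overlapped one of the other. The genes of one stage did not share a motif count, and these matches describe letters, not bound sites.

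Myelin genes separated early from late products. Mbp (myelin basic protein) stood at 6930, 5457, 8251 and 4058 CPM in precursors and 10674 CPM in mature oligodendrocytes. The Gpr17-only cells carried most of it, at 9308 CPM against 1075 in Pdgfra-only cells. Mbp was also detected in 49.8% of microglia, so single UMIs of it in a precursor were not read as expression. Cnp, Cldn11 and Ugt8a stood at 1738 ± 42.4, 781 ± 153 and 261 ± 73.5 CPM, below 4508, 2945 and 564 CPM in oligodendrocytes. Products of the compact and mature sheath were lower still: Mog at 119 ± 111 CPM against 1467, Mobp at 151 ± 135 against 4625, Mag at 272 ± 109 against 1260, Mal at 154 ± 201 against 2756, Trf at 116 ± 149 against 4548, Ermn at 23.5 ± 46.9 against 1362, Opalin at 37.1 ± 45.7 against 1068 and Aspa at 5.86 ± 11.7 against 439. All of these but Mag were highest in the second library with inhibitors among precursors, and Ermn and Aspa were found only there. That library held a precursor with all 8 genes of the oligodendrocyte rule and 154 myelin UMIs. In all, 9 of 59 precursors held at least 4 of these 8 genes.

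**Figure D3:**
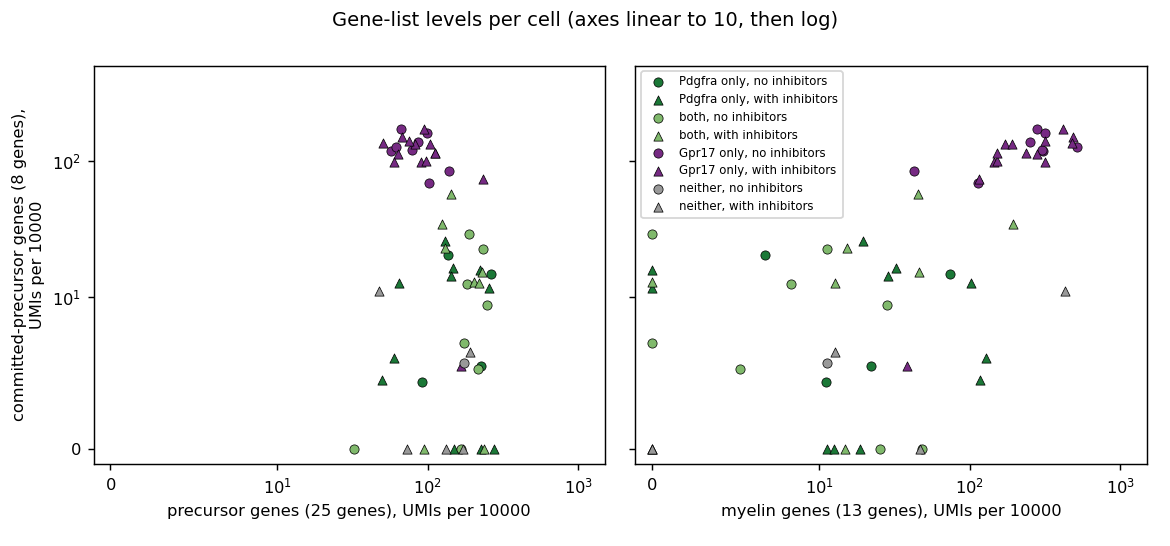
Summed level of the 8 committed-stage genes (vertical axis) against that of 25 precursor genes (left) and 13 myelin genes (right), all in UMIs per 10000 UMIs of each cell on axes that are linear to 10 and then logarithmic, with 1 point per cell coloured by detection of Pdgfra and Gpr17. Gpr17-only cells sit at the top, all but 1 between 69.2 and 171 on the vertical axis, and at the right of the myelin panel.

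Among growth factor receptors, detection outside Pdgfra was sparse. Igf1r was found in 10 cells, Erbb3 in 8, Fgfr3 in 5, Fgfr1 and Erbb4 in 4 each, Fgfr2 in 2 and Egfr in 0, and each averaged below 100 CPM. Fgfr3 stood at 41.8 ± 34.8 CPM in precursors and 677 CPM in astrocytes. Pdgfa, a ligand of Pdgfra, was detected in 12 precursors (204 ± 52.9 CPM) and stood at 327 CPM in oligodendrocytes. Pdgfc, Fgf2 and Igf1 were each detected in 0 of 59 cells. Receptors for synaptic input were led by the AMPA receptor subunit Gria2, detected in 47 cells at 981 and 850 CPM with no inhibitors and 1008 and 1337 CPM with inhibitors, against 25.2 CPM in oligodendrocytes and 740 in astrocytes. Gria3 stood at 130 ± 54.4 CPM against 1.45 and 3.42 CPM in those classes, and the auxiliary subunit Cacng7 at 111 ± 51.4 CPM. Genes of the Notch and BMP response were low, with Hes5 at 82.8 ± 71.5 CPM against 392 in astrocytes and Id4 at 46.7 ± 78.6 against 794.

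Few precursors showed cell cycle RNA. Over 20 genes of replication and mitosis the 59 cells held 28 UMIs of 148428. At least 1 of these genes was detected in 14 cells and at least 3 in 4 cells, and no cell held more than 4. Mki67 was detected in 2 cells and Top2a in 3. Cyclin D1 (Ccnd1) was detected in 7 of the 31 cells with Pdgfra and in 0 of 22 Gpr17-only cells.

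The share of precursors among cells that passed was 0.445% (exact 95% interval, 0.214 to 0.817%) and 0.390% (0.195 to 0.697%) with no inhibitors, and 0.659% (0.361 to 1.10%) and 0.834% (0.535 to 1.24%) with inhibitors. The groups did not overlap, and the intervals of all 4 mice did. The mean was 0.418 ± 0.0388% without and 0.747 ± 0.124% with inhibitors (SD, n = 2 mice each), a difference of -0.329 percentage points. The smallest p of an exact permutation test, two-sided, for 2 mice against 2 is 0.33, the value found here, so this test could not have passed 0.05. At most 10% mitochondrial UMIs per cell the groups overlapped, with a difference of -0.115 percentage points (exact permutation p = 0.667), and with at least 3 of the 6 genes required it was -0.122. As a share of precursors and mature oligodendrocytes together, precursors made up 4.63, 6.11, 6.64 and 7.0%, with means of 5.37 ± 1.05% and 6.82 ± 0.256% (exact permutation p = 0.33).

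The make-up of the precursors moved with depth as well as with library. Pdgfra-only cells numbered 0 of 10, 4 of 11, 2 of 14 and 9 of 24, and Gpr17-only cells 4, 4, 6 and 8. Gpr17-only cells nevertheless gave most of the summed UMIs in each library, 74.2, 57.5, 60.7 and 54.0%. Within them the committed-stage level was similar in the 4 libraries, at 126, 128, 135 and 116 UMIs per 10000.

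**Figure D4:**
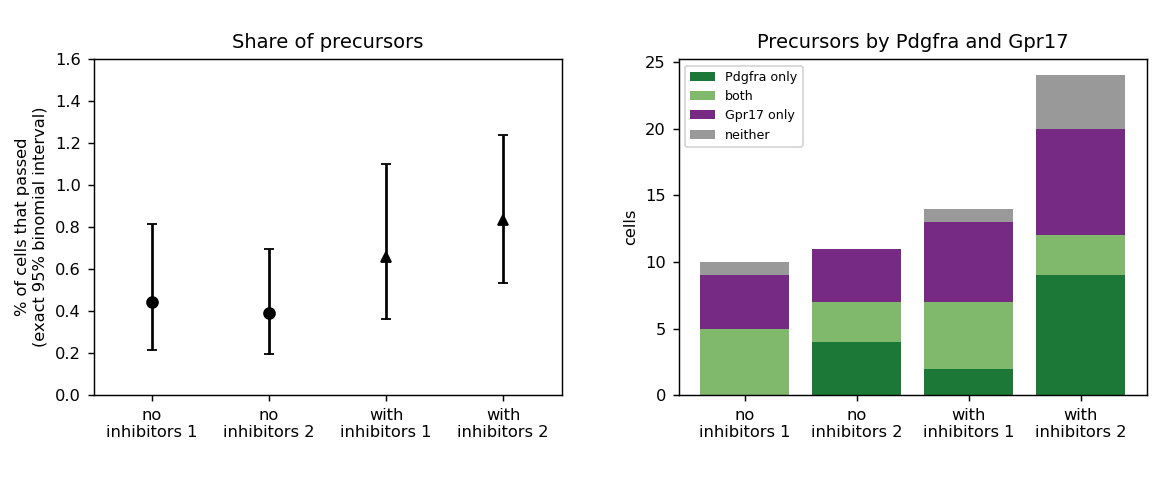
Left, precursors as a percentage of cells that passed in each mouse, with exact 95% binomial intervals; right, the number of precursors in each mouse by detection of Pdgfra and Gpr17. The 2 mice with inhibitors lie above the 2 without, with intervals that overlap, and 9 of the 15 Pdgfra-only cells came from the second mouse with inhibitors.

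The effect of the inhibitors was tested on the summed UMIs of each mouse with edgeR's quasi-likelihood test. A gene was called where its log2 fold change exceeded 0.58 in size and its adjusted p (Benjamini-Hochberg) lay below 0.05. Fold changes are no inhibitors over with inhibitors, so a positive value means higher when digestion ran without inhibitors. Of 604 genes with enough counts, 3 were called (0.497%), 1 higher (0.166%) and 2 lower (0.331%) with no inhibitors, and 43 had an unadjusted p under 0.05. DESeq2 called 0 genes, with 5 at an unadjusted p under 0.05. The median log2 fold change over the 604 genes was -0.01. On simulated counts with 596 genes tested, the edgeR fit called 32.4, 84.4 and 100% of changes planted at 2, 4 and 8-fold. It also made 3 false calls there. The simulation gave every gene the same dispersion and did not model single cells that dominate a sum, as some do here.

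Ctsd (cathepsin D, a lysosomal protease; ENSMUSG00000007891, chr7:142375911-142388038) was higher with no inhibitors, at 368 and 1207 CPM against 136 and 188 CPM (log2 fold change 2.12, SE 0.42, edgeR adjusted p = 8.94e-04). Of the 44 UMIs in the second library with no inhibitors, 40 came from the 1 precursor with microglial genes. Without the 4 cells that held genes of other types, Ctsd stood at 442 and 125 against 144 and 178 CPM, the groups overlapped, and it had too few counts to be tested. Its call also ended without the second mouse with no inhibitors (1.00, adjusted p = 0.891) and without either mouse with inhibitors (adjusted p = 0.258 and 0.0735). Its annotation overlaps that of Gm49369 on the same strand, so reads could be split between them.

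Mt1 (metallothionein 1, a metal-binding stress protein; ENSMUSG00000031765, chr8:94179082-94180327) was lower with no inhibitors, at 184 and 960 against 2342 and 1267 CPM (-1.76, SE 0.41, edgeR adjusted p = 0.0283). Of the 86 UMIs in the first library with inhibitors, 54 came from the precursor with astrocyte genes, and astrocytes stood at 9577, 11552, 10465 and 12125 CPM. Without the 4 cells Mt1 stood at 177 and 657 against 920 and 1273 CPM, and the call remained (-1.45, SE 0.37, adjusted p = 0.0323). It ended without the first mouse with no inhibitors (-1.05, adjusted p = 0.659), without the first with inhibitors (-1.27, adjusted p = 0.550), and with at least 3 of the 6 rule genes required (-0.64, adjusted p = 0.781). With only cells under 4 of 8 oligodendrocyte genes (-1.69, adjusted p = 0.719) or at most 10% mitochondrial UMIs (-1.74, adjusted p = 0.474) it was likewise not called.

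Glul (glutamine synthetase, which is abundant in astrocytes; ENSMUSG00000026473, chr1:153899944-153909723) was lower with no inhibitors, at 123 and 137 against 463 and 469 CPM (-1.97, SE 0.52, edgeR adjusted p = 0.0297). The astrocyte-bearing cell gave 11 of 17 UMIs in the first library with inhibitors. In the second, 7 of 20 came from the precursor with all 8 oligodendrocyte genes, which is not among the 4. Glul stood at 2803 and 2396 against 2969 and 2743 CPM in mature oligodendrocytes. In astrocytes it stood at 2333 and 2364 against 2403 and 2510 CPM. Without the 4 cells Glul had 1, 3, 6 and 18 UMIs and was not tested. Leaving out any 1 mouse ended the call, with log2 fold changes of -2.05 to -1.90, and so did testing without the filter on low counts (-1.87, adjusted p = 0.475) and a limit of 10% mitochondrial UMIs (-2.07, adjusted p = 0.474). Across all 604 genes the groups of 2 did not overlap in 226 genes, so non-overlap as seen for these 3 genes was common.

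With the 4 cells left out, 545 genes were tested and 2 were called, Mt1 and Fth1 (ferritin heavy chain; -1.79, adjusted p = 9.81e-04). Fth1, which is named here after its values were seen, was lower with no inhibitors in that fit and was not called in the full set (-1.19, adjusted p = 0.257). The precursor with all 8 oligodendrocyte genes, which is in both sets, gave 61 of the 151 Fth1 UMIs in the second library with inhibitors, or 61 of 136 without the 4 cells.

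**Figure D5:**
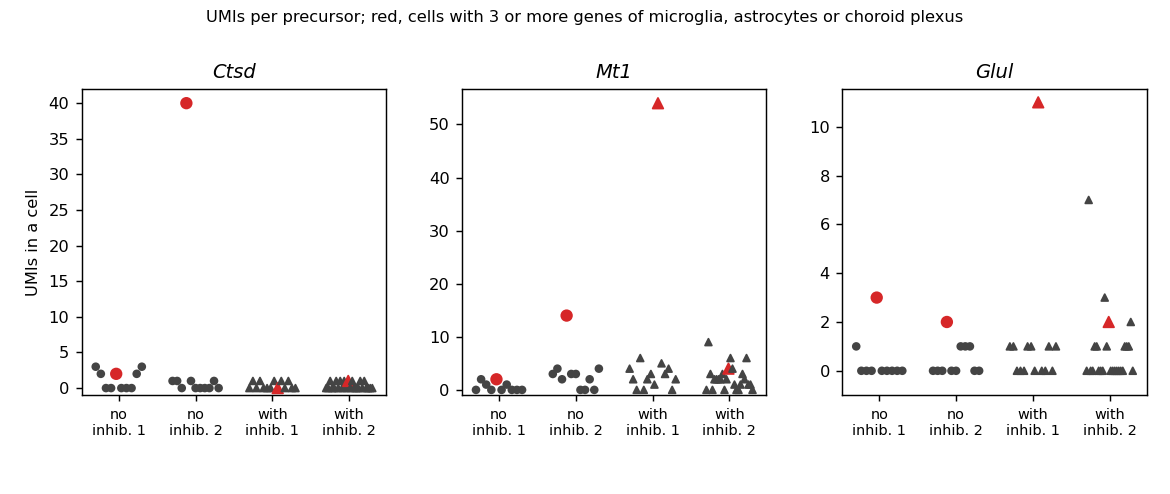
UMIs of Ctsd, Mt1 and Glul in each precursor (vertical axis) by library (horizontal axis), with the 4 cells that hold at least 3 microglia, astrocyte or choroid plexus genes in red. A single red cell holds 40 Ctsd UMIs, another 54 Mt1 UMIs and 11 Glul UMIs, while no other precursor exceeds 3, 9 and 7.

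The lists of precursor and oligodendrocyte genes held no called gene, and with 0.497% of all 604 genes called (median, -0.01) lists of this size would hold few or none, so the counts say nothing particular to them. The 6 genes of the rule, on which the cells were chosen, are not given here. Of the 8 lineage factors 4 had enough counts and 0 were called, with log2 fold changes from -0.63 (Sox10) to 0.23 (Olig2) and a median of 0.09. Of the 8 matrix genes 6 were tested and 0 called, from -0.47 (Bcan) to 0.30 (Cspg5), with a median of -0.23. All 8 committed-stage genes were tested and 0 called, from -0.25 (Bcas1) to 0.24 (Itpr2), with a median of -0.09. Of 13 myelin genes 6 were tested and 0 called, from -0.46 (Ugt8a) to -0.04 (Cldn11), with a median of -0.19. None of the 7 growth factor receptors, 10 genes of ERK feedback, 11 of the Notch and BMP response or 20 of the cell cycle had enough counts to be tested, so for them no change was detectable at this depth.

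Immediate-early and stress genes were scarce in precursors. Of 27 response genes named for this purpose, 3 had enough counts for the test, 15 had 1 to 9 UMIs over all 59 cells and Fosb and Klf4 had 0. Fos, the prototype immediate-early gene, had 0 and 1 UMIs with no inhibitors and 0 and 0 with inhibitors. For Fos, microglia in the same libraries stood at 790, 436, 4.43 and 2.24 CPM, and mature oligodendrocytes at 187, 91.6, 4.74 and 1.12 CPM. Jun had 3, 2, 5 and 5 UMIs, and mature oligodendrocytes stood at 177, 225, 75.8 and 96.2 CPM. Jund overlapped between groups in oligodendrocytes, at 893, 754, 818 and 784 CPM. Junb had 0, 8, 0 and 0, and so did Btg2, while Socs3 and Hspa1a had 4 each and Atf3 and Zfp36 2 each in the same second library with no inhibitors and 0 elsewhere. That library held the precursor with microglial genes, which alone had 53 UMIs of immediate-early genes. Without the 4 set-apart cells it had 0 UMIs of Junb, Btg2, Socs3, Atf3 and Zfp36 and 1 of Hspa1a. Klf2 had 0, 8, 3 and 0 UMIs, Klf6 4, 9, 2 and 1, Jund 0, 6, 6 and 8, Id2 3, 10, 5 and 3, and Id3 0, 1, 5 and 4. Without the 4 cells Klf2 had 0, 2, 3 and 0, Klf6 3, 6, 2 and 1, and Jund 0, 3, 6 and 8. Egr1, Ier2, Nr4a1, Dusp1, Dusp6, Etv5, Dnajb1 and Txnip had at most 3 UMIs in any library, and Spry2, a brake on receptor tyrosine kinase signals, had 1, 0, 3 and 7.

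The 3 response genes that were tested did not pass. Sgk1, a kinase induced by glucocorticoids, had 16, 17, 17 and 12 UMIs (log2 fold change 0.23, edgeR adjusted p = 0.964). Hspa8, a constitutive heat shock protein, had 19, 38, 24 and 31 UMIs (0.09, adjusted p = 0.983). Hsp90aa1, an inducible one, had 12, 11, 6 and 16 UMIs (0.12, adjusted p = 0.983). The sign of each turned when 1 mouse was left out.

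Lists were then summed per 10000 UMIs. A consensus list of 25 activation genes stood at 7.05 and 20.8 UMIs per 10000 with no inhibitors and 13.1 and 11 with inhibitors, overlapping, and microglia stood at 118, 77.8, 25.4 and 22.5. Without the 4 cells with genes of other types, the precursor levels were 7.96 and 10.3 against 12.6 and 11.5. A list of 19 genes that had been chosen on these libraries, and shares 10 genes with the consensus list, stood at 2.45 and 9.87 against 2.18 and 1.88, and at 1.77 and 1.56 against 2.30 and 2.04 without the 4 cells. The 26 other immediate-early genes stood at 9.81 and 20.3 against 10.3 and 7.98, and at 10.6 and 10.6 against 9.77 and 8.40 without them. Heat shock genes stood at 23.6 and 31.3 against 21.5 and 26.7. With each cell thinned to 1000 UMIs, which kept 7, 10, 11 and 13 cells, the consensus list gave 1.41 ± 1.39 UMIs per cell without and 1.62 ± 0.66 with inhibitors (SD, n = 2; exact two-sided permutation p = 1.0).

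The effect in precursors was also compared with that in 891 mature oligodendrocytes (at least 4 of 8 oligodendrocyte genes) and 2060 astrocytes (at least 3 of 6 astrocyte genes), both with at most 1 gene of the precursor rule, from the same mice, by an interaction term with the mouse as a block. On simulated counts these fits called few planted changes. At 2, 4 and 8-fold they called 0, 1.75 and 18% against oligodendrocytes, and 0, 2.9 and 7.46% against astrocytes. A low number of calls thus does not show that the effects were alike. Against oligodendrocytes, 1 of 5758 genes was called (0.0174%). This was 9630013A20Rik (ENSMUSG00000115529, chr14:84458639-84476424, antisense to Pcdh17 on the other strand), with a difference in log2 fold change of -2.85 (SE 0.53, edgeR adjusted p = 0.00152). In precursors it stood at 1227 and 494 CPM with no inhibitors and 1307 and 375 with inhibitors, in 5, 5, 5 and 6 cells, and in oligodendrocytes at 77.3 and 136 against 14.2 and 11.2 CPM. So the group values overlapped in precursors and were apart in oligodendrocytes. Only 4, 3, 3 and 4 oligodendrocytes held the RNA, and 1 cell gave 37 of 55 UMIs in the first library with no inhibitors and 51 of 77 in the second. Without the 4 set-apart precursors the difference was -3.55 (adjusted p = 1.92e-07), and it lost its call without the second mouse with no inhibitors (-1.91, adjusted p = 0.998), without the first with inhibitors (-2.05, adjusted p = 0.982) or without the second (-3.50, adjusted p = 0.214). It was also not called with at least 3 of the 6 rule genes required (-3.58, adjusted p = 0.0936) or with no animal block (-2.97, adjusted p = 0.82).

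Against astrocytes, 1 of 8930 genes was called (0.0112%), which was Ctsd with a difference of 2.29 (SE 0.48, edgeR adjusted p = 0.0152). Ctsd in astrocytes stood at 397 and 413 against 405 and 451 CPM. Without the 4 cells the difference was 0.59 (adjusted p = 1.0), and the call was absent. It also ended without the second mouse with no inhibitors (1.24, adjusted p = 1.0) and without the first or second with inhibitors (adjusted p = 0.261 and 0.20), and with at least 3 of the 6 rule genes required (2.49, adjusted p = 0.273). At an unadjusted p under 0.05 there were 242 genes against oligodendrocytes and 290 against astrocytes, and DESeq2 called 0 in both.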

How the data were processed

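Droplet 3′ RNA-seq (10x version 2 chemistry) was made from 4 whole mouse brains. The authors aligned reads to mm10 (GRCm38) with Cell Ranger 3.0.0 and deposited a table of raw UMI counts per gene and barcode for each library (31053 genes, 12487 barcodes, 5134359 to 7529804 UMIs). Seurat and bcl2fastq are also named in the submitters' processing notes. Whether the counting used strand is not given in the sources used here.

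Cells were selected from the deposited counts by the marker rule of the report. Members and gene lists were chosen with earlier results of these data known. UMIs were summed per mouse and tested with edgeR 4.0.16 (TMM, quasi-likelihood with robust dispersion, low-count filter, R 4.3.3), with Benjamini-Hochberg adjustment. The interaction fits used the mouse as a block. Thresholds followed the study (adjusted p under 0.05, absolute log2 fold change over 0.58). DESeq2 1.42.0 was an alternative. Scripts were tested on simulated data. Shares were compared by exact permutation tests. Doublets were scored in each library by comparison with 2 simulated doublets per cell over 20 neighbours (206 of 10067 cells, 2.05%), and were not removed. Genes named were: called genes (up to 15, and 5 per interaction), 27 response genes, extremes of each list, members of the marker lists, and the 15 highest and 5 lowest ratios over other cells. Chi-square per degree of freedom was 1.50 to 1.90 between libraries of 1 group and 1.63 to 1.96 between libraries of different groups. Differences between the few cells summed in a library also enter this value, so it cannot show separate mice. Each library was kept as 1 mouse, as the study describes. The alternatives were other normalizations, filters, prior counts, cell rules, blocks and leaving out each mouse. Some genes that this rule names are not reported here.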

Additional observations from a re-analysis of the deposited data

Results flagged for a closer look

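The inhibitor effect on 9630013A20Rik differed between precursors and mature oligodendrocytes by -2.85 on the log2 scale (edgeR interaction, SE 0.53, adjusted p = 0.00152), which is why it is listed. The RNA was higher with no inhibitors in 2 of 2 mice among oligodendrocytes, where 14 of 891 cells held it, and overlapped between groups among precursors. One precursor in the first library with no inhibitors, which also held 358 choroid plexus UMIs, gave 24 of that library's 40 UMIs, and one in the first library with inhibitors gave 24 of 48. The part of these single cells in the result was not tested beyond leaving out the cells with genes of other types, which gave -3.55.

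The inhibitor effect on Ctsd differed between precursors and astrocytes by 2.29 (edgeR interaction, SE 0.48, adjusted p = 0.0152). A single precursor with 99 microglial UMIs gave 40 of the 44 Ctsd UMIs in the second library with no inhibitors, and without the 4 cells with genes of other types the difference was 0.59 (adjusted p = 1.0).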

How the results depend on the processing

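With 59 cells, 604 of 31053 genes could be tested, and genes at 0 UMIs could be present at up to 70.4 to 92.0 CPM in a library. The number of genes called for the inhibitor effect (3) was 0 with DESeq2 and 1 with the replicate block, at least 3 of 6 rule genes, under 4 of 8 oligodendrocyte genes, or at most 10% mitochondrial UMIs, and 2 to 5 when 1 mouse was left out. Against oligodendrocytes (1) it was 0 with DESeq2 and with no animal block, 3 with RLE normalization, without doublets or without the 4 cells with genes of other types, and 0 to 2 without 1 mouse. Against astrocytes (1) it was 0 with DESeq2 or at least 3 rule genes and 2 to 2 without 1 mouse. These counts do not say that the same genes were called. The cause of these shifts was not tested.

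The replicate numbers pair nothing that the labels state. The correlation of same-numbered deviations was 0.0871 over 604 genes. With 2 mice per group both pairs must give the same value and crossed pairs its negative, so it cannot show pairing. Under the replicate block Ctsd kept its call (2.11, edgeR adjusted p = 0.0362), and Mt1 (adjusted p = 0.594) and Glul (adjusted p = 0.127) did not. Log2 fold changes turned sign for Sgk1 (-0.0774 without the second mouse with inhibitors, range over mice -0.0774 to 0.59, and -0.0408 at 10% mitochondrial UMIs), Hspa8 (-0.41 without the second mouse with no inhibitors, range -0.41 to 0.43) and Hsp90aa1 (-0.03 without the first mouse with no inhibitors, -0.33 without the first with inhibitors, range -0.33 to 0.89, and -0.0033 without the 4 cells). The difference in list level at a fixed depth moved to -0.233 UMIs for AP-1 genes at 500 UMIs per cell and to 0.175 for other immediate-early genes without the 4 cells. Leaving out 1 mouse gave -0.417 to -0.241 percentage points for the share of precursors, and differences of -1.19 to 0.78 UMIs for the consensus list, -0.25 to 0.11 for AP-1, 0.25 to 1.01 for other immediate-early, -0.18 to 1.44 for heat shock and -0.76 to 0.07 for histone genes. Leaving out the 4 cells was chosen after seeing the data. The difference in share (-0.329) was -0.122 with at least 3 rule genes and -0.115 at 10% mitochondrial UMIs, shifts larger than the SD between mice, and -0.336 to -0.273 under the other cell rules.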
